A study of Homo sapiens with 24 samples.

Results

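The 39 genes described here encode actins, the myosins and regulatory proteins that turn actin filaments into contractile bundles, the crosslinkers and adapters that anchor those bundles at adhesions, and serum response factor (SRF) with its coactivators. They were taken from a list of symbols, looked up by Ensembl identifier among the 60279 genes counted in each library, by a rule that uses no measured value, although earlier results of these data were known when the list was drawn up. All 39 were found. Genes averaging 5 counts or more across 24 libraries were tested, which left 19997 genes and 35 of the 39. ACTC1 (at most 1 count in any library), MYL9 (at most 4), MYH11 (at most 10) and MYOCD (at most 3) stayed below it, and TNNI1 passed only through 2 groups in which it was high.

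Contraction outside muscle depends on bundles of cytoplasmic actin and nonmuscle myosin II, cross-linked by alpha-actinins and filamins and tied to integrin adhesions through vinculin and zyxin. Smooth muscle cells and myofibroblasts add their own actins, SM22 (TAGLN), calponin 1 (CNN1) and leiomodin 1 (LMOD1). Many of these genes carry CArG boxes, the DNA element bound by SRF. SRF works with myocardin in smooth and cardiac muscle and with the myocardin-related factors MRTFA and MRTFB elsewhere, and the MRTFs are released when free actin monomer is used up. YAP and TAZ are coactivators of TEAD factors that respond to cell density and tension, and several cytoskeletal genes are known targets of both pathways.

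Poly(A) RNA was sequenced from SW872 cells, an established human liposarcoma line, in 8 groups of 3 libraries. Every group was stably transduced with a retroviral vector and selected as a pool of cells, so no group is a single clone, and per the study's methods the 3 replicates came from separate transductions. The vector was empty (EV), or carried the fusion protein TAZ-CAMTA1, the fusion YAP-TFE3, the phosphorylation-site mutants TAZ4SA or YAP5SA, full-length TFE3 or full-length CAMTA1. Cells were collected after 48 h at confluence, except CAMTA1, which was sub-confluent, and a second empty vector group titled sub-confluent (EVsub), although the growth text of the labels names only CAMTA1 as the exception. EV was therefore the control of 5 construct groups and of EVsub, so those comparisons share their control libraries, and EVsub was the control of CAMTA1. The fusions were also compared with each other and with their parents, a word used here for the mutants TAZ4SA and YAP5SA. The paper describes both mutants as hyperactivated forms. No group carried wild-type TAZ or YAP, so these comparisons do not place a fusion above or below the wild-type protein.

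Libraries held 19700277 to 35287476 counts. All 6 mesenchymal markers were above 1 CPM (CPM is counts scaled to a common library total by edgeR) in every group, whereas the 6 adipocyte markers were mixed. LPL and PPARG stood at 140 and 46.8 CPM in EV and CEBPA and PLIN1 at 0.665 and 0.69 CPM, while ADIPOQ was at 0 in all 24 libraries and FABP4 in 20. CAMTA1 rose in the CAMTA1 and TAZ-CAMTA1 groups, TFE3 in the TFE3 and YAP-TFE3 groups and YAP1 in YAP5SA. WWTR1, the gene of TAZ, was not raised in the TAZ4SA-labelled libraries, at 134 ± 0.539 CPM against 204 ± 20.3 CPM in EV (log2 difference -0.60, SE 0.08, edgeR adjusted p = 9.77e-07). Nor was WWTR1 called higher in TAZ-CAMTA1 (181 CPM, log2 difference -0.17, not called). It was lower than in EV in YAP-TFE3 (126 CPM, -0.70) and lowest in YAP5SA (68.7 CPM, -1.57). The cause was not tested. By western blot, the paper reports Flag-tagged TAZ4SA and TAZ-CAMTA1 protein in SW872 cells. CCN2, a standard target of YAP and TAZ, stood at 21.3 ± 5.11 CPM in EV (SD, n = 3). It stood at 596 ± 40.3 CPM in the TAZ4SA-labelled libraries, 493 ± 26.7 in YAP5SA, 186 ± 36.6 in YAP-TFE3 and 120 ± 5.4 in TAZ-CAMTA1. YAP-TFE3 replicate 3 stood apart from replicates 1 and 2, with a chi-square per gene of 71.3 and 56.2 against 3.33 to 25.9 for the other pairs within groups. Some YAP-TFE3 results are therefore given both with and without that library. Values of genes from the pathway lists further on are given only with it. A YAP-TFE3 value given once is not thereby shown to be unaffected by replicate 3.

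RefSeq promoter windows (250 bases before to 50 after an annotated start, GRCh38.p14) were at hand for 31 of the 39 genes, with 57 windows in all. The genes with none in that table were ACTB, TAGLN, MYL9, MYH11, DES, MYOCD, TNNI1 and TNNC1. The promoter stretches below hold the motifs that SRF and TEAD factors are known to read, in genes whose levels are described further on. Each is written 5′ to 3′ on the gene's own strand from 150 bases before the start, and ends at the start or where an annotated exon of the gene begins. Capitals mark a CArG box, matched on both strands, in the first 4 sequences: ACTG2 at chr2:73892858-73892943 (plus strand), SRF at chr6:43171119-43171268 (plus strand), FLNA at chrX:154374635-154374784 (minus strand) and CNN2 at chr19:1026458-1026585 (plus strand).
ACTG2: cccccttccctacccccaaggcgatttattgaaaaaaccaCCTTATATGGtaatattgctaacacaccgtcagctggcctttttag
SRF: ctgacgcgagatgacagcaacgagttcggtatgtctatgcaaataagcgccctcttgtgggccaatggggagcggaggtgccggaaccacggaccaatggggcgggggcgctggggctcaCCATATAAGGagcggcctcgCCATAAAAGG
FLNA: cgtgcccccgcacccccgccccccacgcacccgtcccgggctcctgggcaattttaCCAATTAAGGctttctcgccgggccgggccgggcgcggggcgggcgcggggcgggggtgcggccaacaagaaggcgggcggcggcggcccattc
CNN2: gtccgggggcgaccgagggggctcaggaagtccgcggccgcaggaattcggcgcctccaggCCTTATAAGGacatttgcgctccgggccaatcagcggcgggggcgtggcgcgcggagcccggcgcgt
Capitals mark the TEAD motif GGAATG, on either strand, in the next 3: LMOD1 at chr1:201946549-201946698 (minus strand), FLNC at chr7:128830256-128830405 (plus strand) and MYH9 at chr22:36388011-36388117 (minus strand).
LMOD1: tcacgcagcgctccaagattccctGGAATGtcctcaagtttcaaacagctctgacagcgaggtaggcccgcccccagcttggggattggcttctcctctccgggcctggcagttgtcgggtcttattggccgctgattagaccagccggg
FLNC: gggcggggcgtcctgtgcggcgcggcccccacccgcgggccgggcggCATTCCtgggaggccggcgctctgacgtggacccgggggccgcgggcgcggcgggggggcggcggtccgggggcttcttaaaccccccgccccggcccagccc
MYH9: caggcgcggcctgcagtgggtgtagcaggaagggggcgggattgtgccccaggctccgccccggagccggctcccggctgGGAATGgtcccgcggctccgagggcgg
A CArG box was found in 10 of the 57 windows (17.5%), in ACTG2, SRF, FLNA, CNN2, ACTG1, ACTC1, MYLK, TPM4, ACTN1 and SMTN, and in 1.29% of all 35116 windows. ACTG2 held a second one that begins 73 bases before the start and runs past the printed end, and SRF held both of its CArG boxes in the last 30 bases before its start. GGAATG was found in 14 of the 57 windows (24.6%) and in 14.0% of all windows. Besides the 3 genes shown, it was in ACTA2, ACTC1, CNN3, MYLK, MYH10, CALD1, VCL, ACTN1, SMTN and MRTFB. Genes holding it did not share a direction. MYH10 was called lower in the TAZ4SA-labelled libraries and in YAP-TFE3, and MRTFB lower in both mutants. ACTA2, CALD1 and SMTN were not called in either mutant. CACGTG, the element read by TFE3 and its relatives, was in 1 window (1.75%), that of ACTG1, and in 7.26% of all windows. No matches of different motifs overlapped in these windows, and a match describes letters in a window, not binding.

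Most of these genes were higher than in EV in both phosphorylation-site mutants (the TAZ4SA-labelled libraries and YAP5SA), a smaller number in TAZ-CAMTA1, and in YAP-TFE3 the shares called higher and lower were close to those of all genes. In the TAZ4SA-labelled libraries, 28 of the 35 tested genes were higher than in EV and 2 were lower, against 25.1% and 24.2% of all tested genes called higher and lower (49.2% called in either direction, edgeR adjusted p under 0.05). In YAP5SA 27 were higher and 1 was lower, where 44.3% of all genes were called (22.7% higher, 21.6% lower). These counts include TNNI1, which could only be tested because it was high in these groups, and without it they were 27 and 2 of 34 and 26 and 1 of 34. The median log2 difference over the 35 was 0.80 in the TAZ4SA-labelled libraries and 0.90 in YAP5SA, while the median over all tested genes was -0.035 and -0.036. In YAP-TFE3 11 genes were higher and 9 lower, with a median of -0.03, where 48.2% of all genes were called (25.6% higher, 22.6% lower). Without YAP-TFE3 replicate 3 all 20 of these calls remained, TPM3 (-0.25) and MRTFA (-0.30) were lower as well, and the median was -0.09. In TAZ-CAMTA1 8 were higher and 0 lower, with a median of 0.16, where 4.98% of all genes were called (3.55% higher, 1.44% lower). The 8 became 5 without EV replicate 1 or TAZ-CAMTA1 replicate 1 and 4 without TAZ-CAMTA1 replicate 2. In TFE3 none of the 35 was called, where 0.035% of all genes were. Of the 35, 0 had an unadjusted p under 0.05 there by edgeR or by DESeq2, where 3.79% of all genes did by edgeR.

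**Figure D1:**
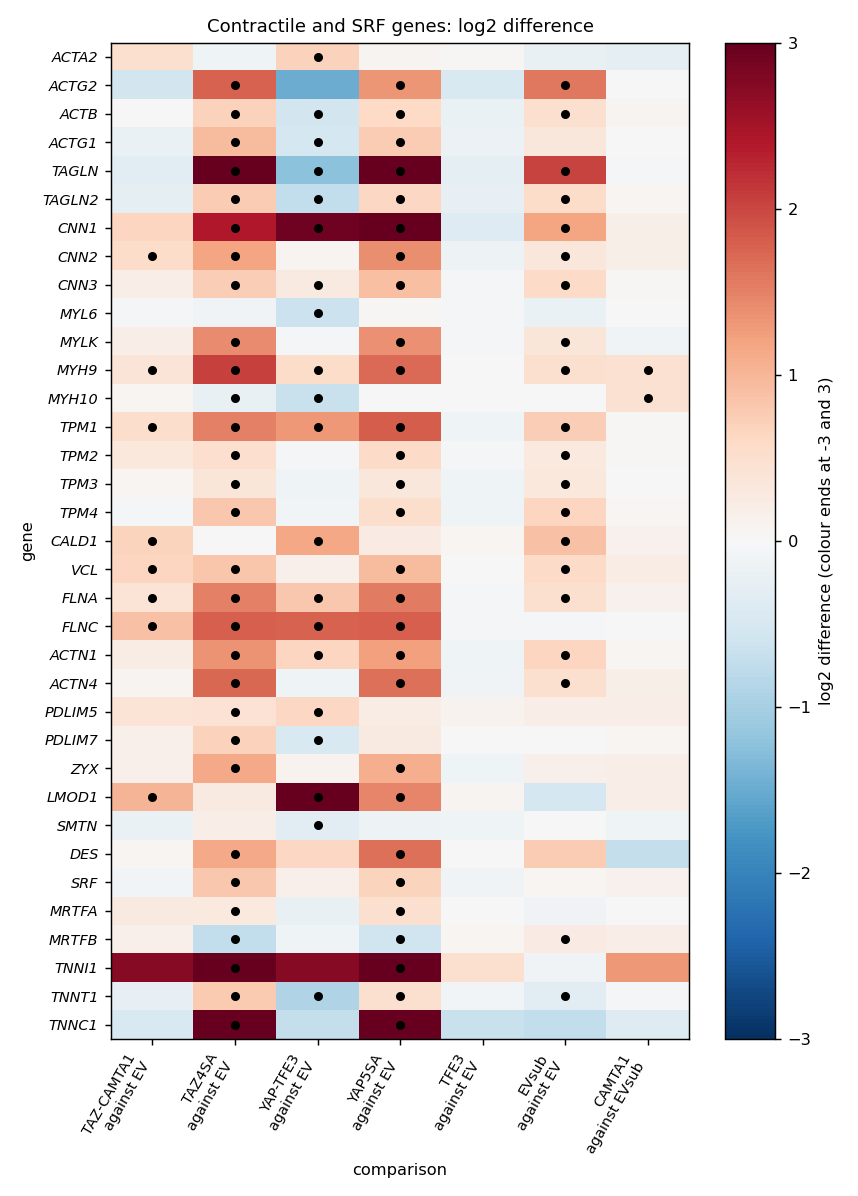
Log2 differences (edgeR, colour scale ending at -3 and 3) of the 35 tested genes (rows) in 7 comparisons with a control (columns); dots mark calls at an adjusted p under 0.05. The columns of TAZ4SA (as labelled) and YAP5SA are red for 28 and 27 called genes, the YAP-TFE3 column mixes 11 red and 9 blue calls, the TFE3 column has no dot, and the colours of TNNI1 outside TAZ4SA and YAP5SA rest on 0 to 5 counts per library.

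The summed level of the 39 genes was 1.27% of scaled counts in EV (1.25% to 1.28% over 3 libraries), 2.71% in the TAZ4SA-labelled libraries (2.55% to 2.83%) and 2.60% in YAP5SA (2.30% to 2.86%). It was 1.46% in YAP-TFE3, 1.44% in TAZ-CAMTA1, 1.18% in TFE3, 1.70% in EVsub and 1.82% in CAMTA1. Per kilobase of exon, the EV level was highest for the cytoplasmic actins ACTB (530 CPM per kb) and ACTG1 (521), then FLNA (230), TAGLN2 (183) and MYL6 (122). Smooth muscle genes were low on the same scale, with TAGLN at 2.91, CNN1 at 0.754, LMOD1 at 0.363, ACTA2 at 0.324, DES at 0.318 and ACTG2 at 0.0451 CPM per kb. In RNA from whole cultures, fewer cells of a kind and less RNA per cell cannot be told apart.

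Among the actins, the 2 cytoplasmic genes rose in the mutants and fell in YAP-TFE3. ACTB (beta-actin, ENSG00000075624, chromosome 7, 5526409 to 5563902, minus strand, in GRCh38 with GENCODE annotation, as for all coordinates below) read 2390, 2360 and 2250 CPM in EV, 4080, 3750 and 3390 in the TAZ4SA-labelled libraries, 3630, 4090 and 2870 in YAP5SA, and 1240, 1450 and 2060 in YAP-TFE3. Both mutants lay above EV and YAP-TFE3 below it with no overlap. Against EV the log2 difference was 0.68, 0.60 and -0.56 (SE 0.15 for each, edgeR adjusted p = 0.000544, 0.00205 and 0.0029). ACTG1 (gamma-actin) differed by 0.96, 0.75 and -0.53 (SE 0.18 each, edgeR adjusted p = 8.85e-05, 0.0013 and 0.0157). Its YAP-TFE3 libraries, at 1030, 1220 and 2130 CPM, overlapped EV (2030 to 2150) through replicate 3, and without that library the differences were -0.90 for ACTG1 and -0.79 for ACTB. The ACTG1 call was lost without YAP-TFE3 replicate 1 or 2 and in a fit of the compared groups alone. Actins are near-identical in sequence, so how reads were divided among them is uncertain.

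The smooth muscle actins were the low ones, and ACTG2 lay close to the limit that a count of 0 allows (3 counts per library). ACTG2 (enteric smooth muscle gamma-actin, chromosome 2, 73892314 to 73919865, plus strand), whose window holds 2 CArG boxes, had 8, 5 and 1 counts in EV, 14, 20 and 13 in the TAZ4SA-labelled libraries and 13, 14 and 4 in YAP5SA. Its log2 difference was 1.78 in the former (SE 0.49, edgeR adjusted p = 0.00461) and 1.33 in the latter (SE 0.53, edgeR adjusted p = 0.0437), a call lost with total-count scaling, in a fit of the compared groups alone and without YAP5SA replicate 1 or 2 or EV replicate 2 or 3. It had 1, 2 and 3 counts in YAP-TFE3 against 14 counts in all of EV, a ratio of 0.334 (95% counting interval 0.105 to 0.927), and the edgeR test gave adjusted p = 0.0919. ACTA2 (alpha smooth muscle actin), the usual myofibroblast marker, was not called in the mutants. It read 1.80, 1.79 and 1.89 CPM in EV and 1.45 to 2.13 CPM over the 6 libraries of the 2 mutants, at log2 differences of -0.12 and 0.08 (95% intervals -0.53 to 0.28 and -0.32 to 0.48). In YAP-TFE3 it read 2.31, 3.45 and 3.12 CPM (log2 difference 0.70, SE 0.19, edgeR adjusted p = 0.00379). ACTA2 lies across from FAS and STAMBPL1 on the other strand, and use of strand in the counting was not stated.

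TAGLN (SM22 alpha, ENSG00000149591, chromosome 11, 117199370 to 117207464, plus strand), an actin-binding protein of early smooth muscle differentiation, separated the mutants from the fusions most widely among the genes above 1 CPM in every library. It read 21.6, 18.7 and 16.9 CPM in EV, 228, 236 and 244 in the TAZ4SA-labelled libraries, and 262, 286 and 185 in YAP5SA. That is 12.4-fold and 12.8-fold higher (log2 differences 3.63 and 3.68, SE 0.21 each, edgeR adjusted p = 1.86e-12 and 1.31e-12). Neither fusion showed a rise. YAP-TFE3 libraries held 6.70, 7.98 and 9.49 CPM, all below EV (log2 difference -1.24, SE 0.21, edgeR adjusted p = 3.84e-05). TAZ-CAMTA1 libraries held 15, 16.3 and 14.3 CPM (log2 difference -0.33, 95% interval -0.73 to 0.08, edgeR adjusted p = 0.435). EVsub and CAMTA1 lay between, at 56.6 to 91.3 and 55.7 to 103 CPM. TAGLN2, its broadly expressed relative, took the same directions at smaller size, with log2 differences of 0.76, 0.62 and -0.74 in the TAZ4SA-labelled libraries, YAP5SA and YAP-TFE3 (SE 0.15 each, edgeR adjusted p = 0.000185, 0.00169 and 0.00023). TAGLN overlaps PCSK7 on the opposite strand and another annotated gene, ENSG00000280143, on its own strand.

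Calponins, which restrain actomyosin sliding, did not move as TAGLN did. CNN1 (calponin 1, ENSG00000130176, chromosome 19, 11538767 to 11550323, plus strand), a smooth muscle marker that overlaps no other gene, read 2.55, 2.21 and 1.65 CPM in EV. It rose in the TAZ4SA-labelled libraries to 12.7, 12.4 and 9.61 CPM, in YAP5SA to 22.2, 23.2 and 14.3 CPM, and also in YAP-TFE3, to 13.5, 16.3 and 18.9 CPM. The log2 differences were 2.41, 3.20 and 2.91 (SE 0.28 each, edgeR adjusted p = 1.52e-07, 1.45e-09 and 6.22e-09). YAP-TFE3 and YAP5SA overlapped, with a difference of -0.29 between them (95% interval -0.75 to 0.17). TAZ-CAMTA1, at 3.34, 4.21 and 2.68 CPM, lay above EV in every library but missed the threshold (log2 difference 0.65, SE 0.30, edgeR adjusted p = 0.243). CNN2, the nonmuscle calponin, was higher in all 3 TAZ-CAMTA1 libraries (213, 206 and 190 CPM) than in EV (137, 135 and 145), by 0.54 (SE 0.09, edgeR adjusted p = 0.000237). It rose further in the TAZ4SA-labelled libraries (330, 315 and 307 CPM) and in YAP5SA (373, 411 and 314), by 1.19 and 1.40, and in YAP-TFE3 it read 137, 155 and 152 CPM, a difference of 0.09 (95% interval -0.08 to 0.26). CNN3 rose by 0.74, 0.90 and 0.27 in the TAZ4SA-labelled libraries, YAP5SA and YAP-TFE3, the last call being lost without EV replicate 3 and in a fit of the compared groups alone.

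**Figure D2:**
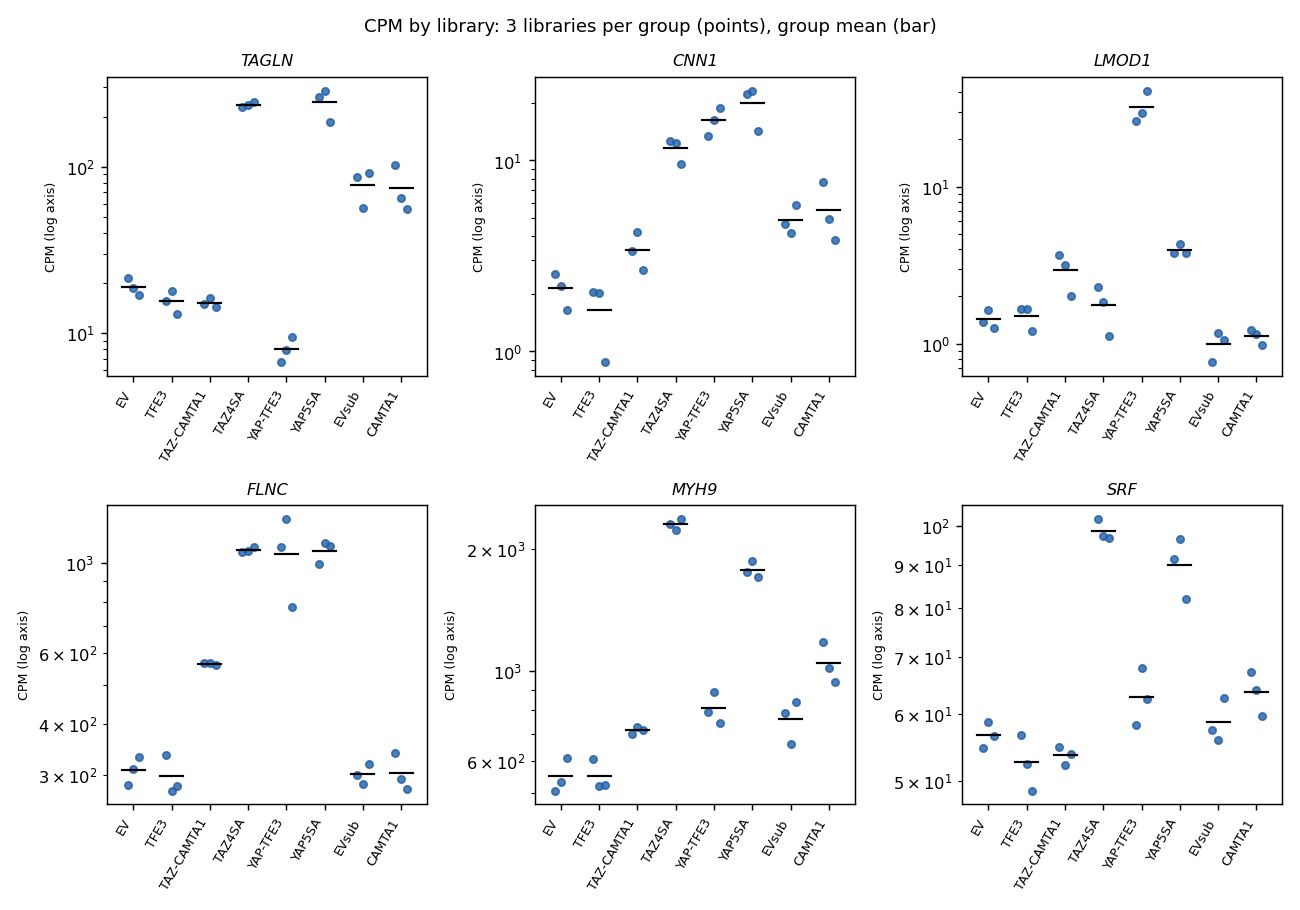
CPM on log axes for TAGLN, CNN1, LMOD1, FLNC, MYH9 and SRF in the 8 groups; points are the 3 libraries and bars the group mean. TAGLN is highest in TAZ4SA and YAP5SA and lowest in YAP-TFE3 (6.70 to 9.49 CPM), LMOD1 is highest in YAP-TFE3 (26.1 to 40.7 CPM), and CNN1 and FLNC are high in all 3 of those groups.

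Nonmuscle myosin II has heavy chains encoded by MYH9 (IIA), the faster contractile form, and MYH10 (IIB), and these did not move together. MYH9 (ENSG00000100345, chromosome 22, 36281280 to 36388010, minus strand) read 508, 534 and 610 CPM in EV, 2310, 2230 and 2370 in the TAZ4SA-labelled libraries and 1760, 1870 and 1710 in YAP5SA. These are rises of 4.18-fold and 3.24-fold (log2 differences 2.06 and 1.69, SE 0.10 each, edgeR adjusted p = 9.83e-14 and 2.20e-12). It rose by 0.55 in YAP-TFE3, at 794, 889 and 744 CPM (SE 0.10, edgeR adjusted p = 6.20e-05). In TAZ-CAMTA1, at 701, 727 and 716 CPM, the rise was 0.38 (SE 0.10, edgeR adjusted p = 0.0267), a call lost in 5 of 6 fits that left out 1 library and kept only without EV replicate 3. MYH10 read 358, 344 and 329 CPM in EV. It fell in YAP-TFE3, to 217, 219 and 217 CPM (log2 difference -0.66, SE 0.07, edgeR adjusted p = 1.97e-08), and by 0.22 in the TAZ4SA-labelled libraries (SE 0.07, edgeR adjusted p = 0.00765). In YAP5SA it differed by -0.02 (95% interval -0.15 to 0.11). In the TAZ4SA-labelled libraries and in YAP-TFE3 the 2 chains thus moved in opposite directions, although the fall of MYH10 in the former was not called when genes with at least 1 count in any library were tested.

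MYLK, the kinase that switches on myosin II by phosphorylating its regulatory light chain, read 33.4, 32.8 and 36.8 CPM in EV, 95.9, 98.6 and 78.4 in the TAZ4SA-labelled libraries, and 96.7, 92.2 and 79.9 in YAP5SA. Its log2 differences were 1.41 and 1.38 (SE 0.11 each, edgeR adjusted p = 1.35e-10 and 1.75e-10). In YAP-TFE3 it read 32.6, 33.4 and 34.2 CPM, a difference of -0.04 (95% interval -0.25 to 0.17), and in TAZ-CAMTA1 37.6, 40.2 and 40.3 CPM, a difference of 0.20 (edgeR adjusted p = 0.335). The essential light chain MYL6 was not called in either mutant (differences of -0.10 and 0.03) and lower in YAP-TFE3, at 280, 292 and 453 CPM against 483, 552 and 578 (log2 difference -0.65, SE 0.16, edgeR adjusted p = 0.00179; -0.91 without replicate 3). The smooth muscle heavy chain MYH11 and regulatory light chain MYL9 gave too few counts to test in any group.

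Tropomyosins are the coiled coils that line actin filaments, and caldesmon binds along them. TPM1 read 314, 317 and 214 CPM in EV, 827, 857 and 725 in the TAZ4SA-labelled libraries, 1060, 1040 and 868 in YAP5SA, and 709, 720 and 643 in YAP-TFE3. All 9 libraries of these groups were above EV, and the log2 difference was 1.51, 1.81 and 1.29 (SE 0.15 for each, edgeR adjusted p = 1.46e-08, 7.98e-10 and 1.48e-07). In TAZ-CAMTA1 it read 407, 457 and 347 CPM (log2 difference 0.52, SE 0.15, edgeR adjusted p = 0.0416), a call lost without EV replicate 3 or TAZ-CAMTA1 replicate 1 or 2 and with a filter at a mean of 20 counts. TPM2, TPM3 and TPM4 rose in both mutants by 0.33 to 0.80 and were not called in YAP-TFE3 or TAZ-CAMTA1, and the 2 TPM3 calls were lost with total-count scaling.

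CALD1 (chromosome 7, 134744252 to 134970729, plus strand) rose in both fusions and was not called in either mutant. It read 344, 283 and 261 CPM in EV, 771, 624 and 577 in YAP-TFE3 and 440, 475 and 502 in TAZ-CAMTA1. The log2 differences were 1.15 (SE 0.13, edgeR adjusted p = 5.55e-08) and 0.67 (SE 0.12, edgeR adjusted p = 0.00127), with no overlap. The TAZ4SA-labelled libraries read 273, 283 and 342 CPM and YAP5SA 351, 341 and 362, differences of 0.01 (95% interval -0.23 to 0.26) and 0.24 (edgeR adjusted p = 0.112). The direct tests of fusion against parent gave 0.66 for TAZ-CAMTA1 over TAZ4SA (edgeR adjusted p = 1e-04) and 0.90 for YAP-TFE3 over YAP5SA (edgeR adjusted p = 1.60e-06; SE 0.12 each).

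The filamin genes FLNC and FLNA, whose products crosslink actin into networks and carry force, were higher in both fusions and both mutants. FLNC (filamin C, the muscle form, ENSG00000128591, chromosome 7, 128830406 to 128859274, plus strand) read 283, 310 and 333 CPM in EV. It was 3.48-fold and 3.46-fold higher in the mutants, at 1060, 1070 and 1090 CPM in the TAZ4SA-labelled libraries and 990, 1120 and 1100 in YAP5SA. YAP-TFE3 reached the same level, with 1090, 1280 and 778 CPM, replicate 3 being the low one. The log2 differences were 1.80, 1.79 and 1.76 (SE 0.13 each, edgeR adjusted p = 3.21e-11, 3.33e-11 and 4.27e-11), and 1.94 in YAP-TFE3 without replicate 3. TAZ-CAMTA1 libraries held 566, 566 and 561 CPM (log2 difference 0.87, SE 0.12, edgeR adjusted p = 5.07e-05). FLNC was near 300 CPM in EVsub and CAMTA1 (277 to 340 CPM over 6 libraries), where it was not called.

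FLNA (filamin A), at 2480, 2490 and 2530 CPM in EV, was the most abundant of the 39 by CPM. It reached 7460, 7350 and 6710 CPM in the TAZ4SA-labelled libraries, 7120, 8160 and 6710 in YAP5SA, 4160, 4780 and 4110 in YAP-TFE3 and 3300, 3450 and 3220 in TAZ-CAMTA1. The log2 differences were 1.52, 1.55, 0.80 and 0.41 (SE 0.10 each, edgeR adjusted p = 1.85e-11, 1.25e-11, 5.54e-07 and 0.0155), and the last was lost without EV replicate 1 or 2 or TAZ-CAMTA1 replicate 2. VCL (vinculin, which links integrin adhesions to actin) was higher in TAZ-CAMTA1, at 380, 415 and 379 CPM against 256, 266 and 232 in EV (log2 difference 0.64, SE 0.13, edgeR adjusted p = 0.00308). It rose by 0.83 and 0.95 in the mutants, and its YAP-TFE3 libraries diverged, with 218, 239 and 379 CPM and no call.

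The alpha-actinins split in YAP-TFE3. ACTN1 read 284, 284 and 299 CPM in EV, 758, 743 and 687 in the TAZ4SA-labelled libraries, 683, 735 and 624 in YAP5SA and 424, 471 and 452 in YAP-TFE3. It rose by 1.34, 1.24 and 0.64 (SE 0.08 each, edgeR adjusted p = 5.81e-12, 2.01e-11 and 9.26e-07). ACTN4 rose 3.30-fold and 3.16-fold in the mutants, from 354, 374 and 411 CPM to 1270, 1250 and 1230 and to 1170, 1280 and 1150. In YAP-TFE3 it read 311, 346 and 391 CPM, a difference of -0.12 (95% interval -0.31 to 0.06). Zyxin (ZYX), a force-sensing adhesion protein, had the same calls as ACTN4 in these groups, at 197, 204 and 185 CPM in EV, 465, 436 and 390 in the TAZ4SA-labelled libraries, 412, 491 and 338 in YAP5SA and 201, 229 and 202 in YAP-TFE3 (log2 differences 1.14, 1.08 and 0.11, SE 0.12 each). The adapters PDLIM5 and PDLIM7 rose by 0.43 and 0.68 in the TAZ4SA-labelled libraries (PDLIM5 not without TAZ4SA replicate 3 or with total-count scaling), while in YAP-TFE3 PDLIM5 rose by 0.62 (0.35 without replicate 3) and PDLIM7 fell by 0.45.

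LMOD1 (leiomodin 1, an actin filament nucleator of smooth muscle, ENSG00000163431, chromosome 1, 201896456 to 201946548, minus strand) was the gene most raised by YAP-TFE3. It read 1.38, 1.64 and 1.26 CPM in EV and 26.1, 29.4 and 40.7 in YAP-TFE3, a rise of 22.3-fold (log2 difference 4.48, SE 0.23, edgeR adjusted p = 1.78e-13; 4.27 without replicate 3). YAP5SA reached 3.78, 4.33 and 3.78 CPM (log2 difference 1.46, SE 0.25, edgeR adjusted p = 3.74e-05), 8.10-fold below YAP-TFE3. TAZ-CAMTA1 libraries held 3.64, 3.19 and 2.00 CPM (log2 difference 1.02, SE 0.25, edgeR adjusted p = 0.0149), a call lost in 4 of 6 fits that left out 1 library (EV replicate 1 or 3, TAZ-CAMTA1 replicate 1 or 2). The TAZ4SA-labelled libraries, at 2.29, 1.85 and 1.12 CPM, overlapped EV (log2 difference 0.28, 95% interval -0.24 to 0.81). SMTN (smoothelin) fell by 0.32 in YAP-TFE3, from 55.4, 52.3 and 59.1 CPM to 42.0, 45.9 and 45.5 (SE 0.10, edgeR adjusted p = 0.00757), and was not called in the other control comparisons. Of the 7 smooth muscle markers that are not among the 39, PLN was at 0 in 23 libraries and the summed level was 44.6 to 53.2 CPM in EV, 57.1 to 64.2 in YAP-TFE3, 37.7 to 40.9 in the TAZ4SA-labelled libraries and 36.0 to 44.6 in YAP5SA. The 2 most abundant did not move together. In the same group order SYNM averaged 27.4, 37.9, 30 and 31.1 CPM and ITGA8 17.3, 14.4, 6.81 and 5.07 CPM. PRKG1, named after its values were seen, averaged 1.33 CPM in YAP-TFE3 (41 to 47 counts per library) and 0.045 CPM in EV. In the remaining groups its mean was at most 0.0668 CPM. The part of other cell types in these results was not tested.

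SRF itself rose in both mutants. SRF (ENSG00000112658, chromosome 6, 43171269 to 43181506, plus strand) read 54.7, 58.7 and 56.5 CPM in EV, 102, 97.3 and 97.0 in the TAZ4SA-labelled libraries and 91.5, 96.5 and 82.0 in YAP5SA, with no overlap. These are 1.75-fold and 1.59-fold (log2 differences 0.80 and 0.67, SE 0.08 each, edgeR adjusted p = 1.78e-08 and 3.47e-07). YAP-TFE3 libraries held 58.2, 68.0 and 62.5 CPM and TAZ-CAMTA1 libraries 54.9, 52.2 and 53.8, differences of 0.15 (95% interval -0.01 to 0.31) and -0.08 (95% interval -0.24 to 0.08). The coactivator genes moved in opposite directions. MRTFA read 46.1, 46.7 and 48.9 CPM in EV, 64.7, 74.1 and 58.0 in YAP5SA (log2 difference 0.47, SE 0.10, edgeR adjusted p = 0.000543) and 62.4, 58.5 and 52.3 in the TAZ4SA-labelled libraries (0.29, SE 0.10, edgeR adjusted p = 0.0208). The latter call was lost with total-count scaling and without EV replicate 1 or 2 or TAZ4SA replicate 1 or 2. MRTFB fell, from 79.6, 72.9 and 68.1 CPM to 41.6, 43.1 and 47.9 and to 45.5, 45.3 and 54.3 (log2 differences -0.74 and -0.60, SE 0.10 each, edgeR adjusted p = 1.24e-06 and 2.05e-05). MYOCD, the muscle coactivator, had 0 counts in all EV libraries and at most 3 in any other, so it was at or below the limit that a count of 0 allows (3 counts per library) throughout.

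Of the troponins, the calcium switch of striated muscle, TNNC1 and TNNT1 rose in the mutants and TNNI1 was counted almost only there. TNNI1 (slow skeletal troponin I, chromosome 1, 201403784 to 201429866, minus strand) had 0, 0 and 1 counts in EV. It reached 9.97, 15.2 and 4.01 CPM in the TAZ4SA-labelled libraries and 14.3, 12.9 and 1.33 in YAP5SA. As summed counts this is 706 and 608 against 1 in EV, ratios of 723 (95% counting interval 129 to 28600) and 687 (123 to 27200). Since TNNI1 passed the filter only through these groups, the values are a description with no test. In the other 6 groups no library held more than 5 counts. TNNC1 (troponin C of slow and cardiac muscle) read 0.311, 0.419 and 0.291 CPM in EV, 4.26, 6.87 and 2.82 in the TAZ4SA-labelled libraries and 7.27, 7.80 and 3.05 in YAP5SA (log2 differences 3.74 and 4.12, SE 0.39 each, edgeR adjusted p = 3.09e-08 and 5.46e-09). Replicate 3 was the lowest in both groups for both genes, and without it the log2 difference of TNNC1 was 4.0 and 4.44. TNNT1 (slow skeletal troponin T), at 76.2, 78.5 and 79.1 CPM in EV, was present throughout. It rose by 0.79 and 0.48 in the mutants and fell by 0.90 in YAP-TFE3, to 39.4, 44.8 and 41.0 CPM (SE 0.12 each, edgeR adjusted p = 5.92e-06, 0.00163 and 9.63e-07).

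Desmin (DES), the intermediate filament of muscle, read 0.932, 0.762 and 0.679 CPM in EV, 1.69, 2.45 and 1.16 in the TAZ4SA-labelled libraries and 3.12, 2.52 and 1.93 in YAP5SA (log2 differences 1.13 and 1.65, SE 0.29 and 0.28, edgeR adjusted p = 0.00247 and 4.43e-05). One skeletal muscle marker moved with the troponins. MYOD1, a myogenic transcription factor, read 0.621, 0.381 and 0.291 CPM in EV, 22.3, 30.2 and 12.3 in the TAZ4SA-labelled libraries and 17.0, 20 and 3.09 in YAP5SA (log2 differences 5.59 and 4.89, edgeR adjusted p = 2.23e-08 and 2.28e-07), with replicate 3 again the lowest. Of the 5 markers in that list, MYF5 and MYF6 were at 0 in all 24 libraries, MYOG reached at most 0.117 CPM, and CKM was 2.78 to 3.91 CPM in the TAZ4SA-labelled libraries against 2.80 to 3.54 in EV. Their summed level was 3.39 to 3.96 CPM in EV, 15.1 to 34.2 in the TAZ4SA-labelled libraries and 5.14 to 22.6 in YAP5SA. Their part in the troponin result was not tested.

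**Figure D3:**
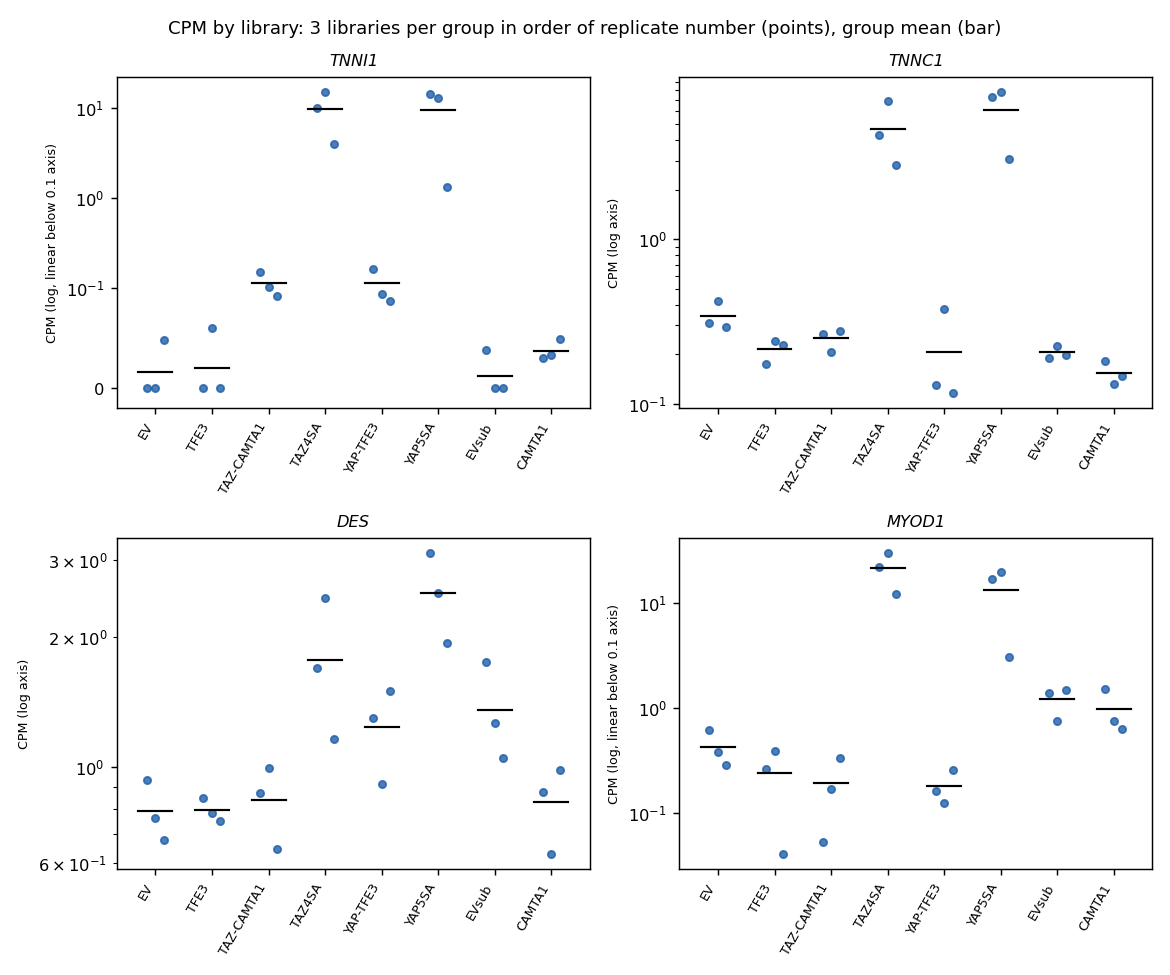
CPM by library for TNNI1, TNNC1, DES and the skeletal muscle marker MYOD1 in the 8 groups, on log axes that are linear below 0.1 CPM where values reach lower; points are replicates 1 to 3 from left to right and bars the group mean. TNNI1, TNNC1 and MYOD1 are high in TAZ4SA and YAP5SA, where replicate 3 is the lowest library of each group.

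Compared directly, each fusion was below its hyperactivated mutant parent at most of these genes. TAZ-CAMTA1 was lower than the TAZ4SA-labelled libraries at 25 of the 35 and higher at 5, with a median of -0.88, where 53.7% of all genes were called (26.8% lower, 26.9% higher). YAP-TFE3 was lower than YAP5SA at 27 and higher at 5, with a median of -0.71, where 52.4% of all genes were called (24.3% lower, 28.1% higher). Without YAP-TFE3 replicate 3 the counts were 27 and 4 and the median -0.78, and without TNNI1 the lower counts were 24 and 26 of 34. TAGLN differed most among the genes above 1 CPM in every library, by -3.96 (SE 0.22) for TAZ-CAMTA1 and -4.92 (SE 0.23) for YAP-TFE3. Expressed as folds, it was 15.5-fold and 30.3-fold lower than in the parent (edgeR adjusted p = 5.39e-13 and 2.25e-14). SRF was lower by 0.88 and 0.52 on the log2 scale (edgeR adjusted p = 3.69e-09 and 9.09e-06), and ACTN4 by 1.63 and 1.78.

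The genes on which a fusion stood above its parent were few. ACTA2, CALD1, LMOD1 and MRTFB were higher in both contrasts. The ACTA2 call was lost without TAZ4SA replicate 1 in the TAZ-CAMTA1 contrast, and in the YAP-TFE3 contrast without YAP5SA or YAP-TFE3 replicate 2 and in a fit of the compared groups alone. MYH10 was higher in TAZ-CAMTA1 than in the TAZ4SA-labelled libraries by 0.29, and PDLIM5 was higher in YAP-TFE3 than in YAP5SA by 0.39, a call lost without YAP-TFE3 replicate 3 (0.12) or YAP5SA replicate 2 and in a fit of the compared groups alone. LMOD1 was higher by 0.74 in TAZ-CAMTA1 (SE 0.24, edgeR adjusted p = 0.013), where the groups overlapped and the call was lost without TAZ4SA replicate 3 or TAZ-CAMTA1 replicate 1, and by 3.02 in YAP-TFE3 (SE 0.21, edgeR adjusted p = 2.04e-11). For 3 genes, no difference between YAP-TFE3 and YAP5SA was called: CNN1, FLNC (-0.03, 95% interval -0.27 to 0.21) and SMTN (-0.16, 95% interval -0.35 to 0.02). No difference between TAZ-CAMTA1 and the TAZ4SA-labelled libraries was called for MYL6, TPM2, VCL, PDLIM5 and MRTFA, and for VCL it was -0.19 (95% interval -0.45 to 0.06).

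**Figure D4:**
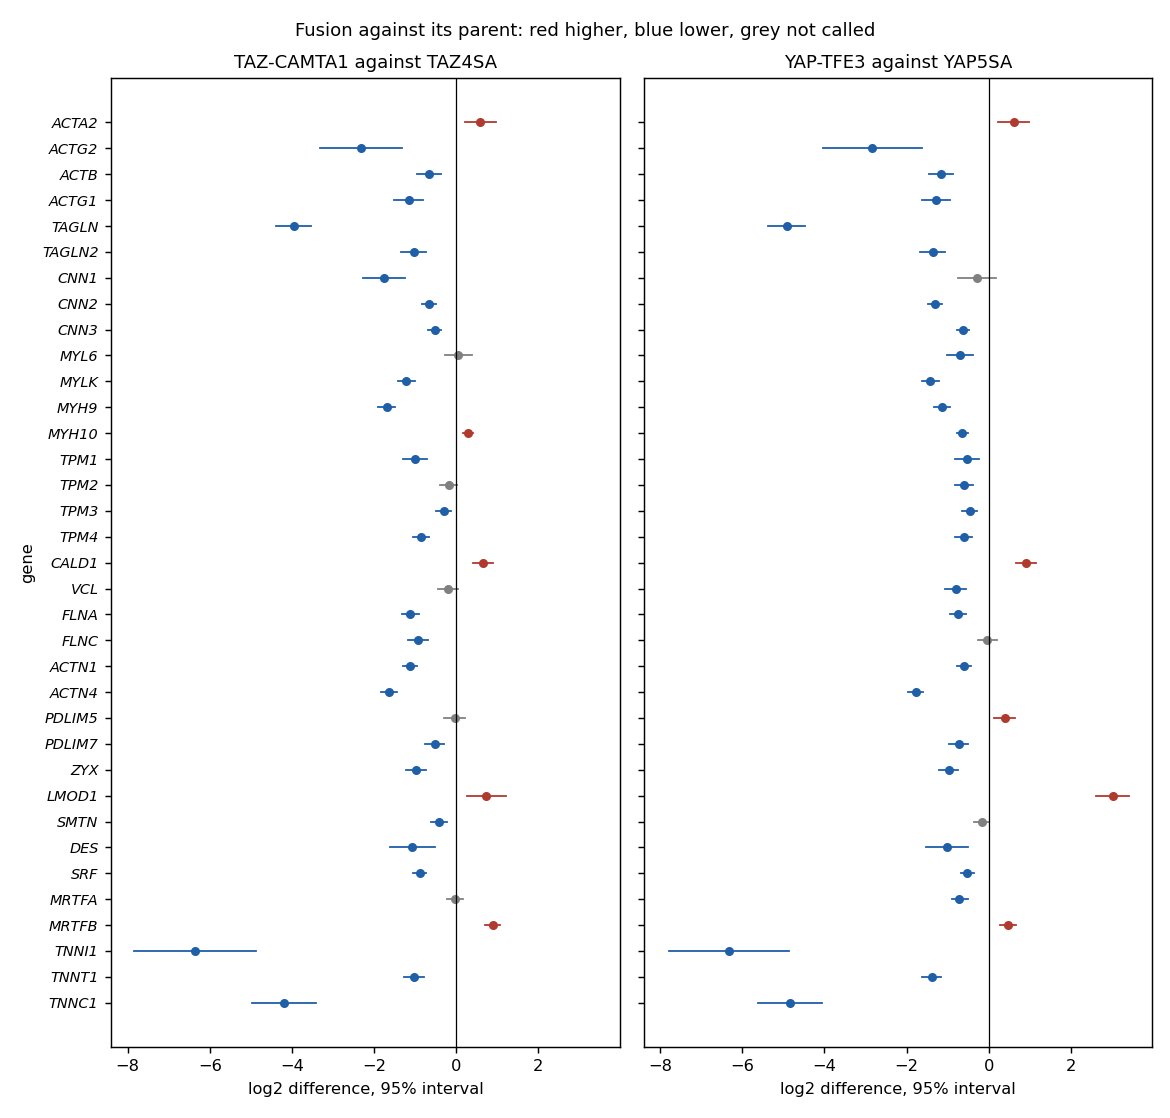
Log2 differences with 95% intervals (edgeR) between each fusion and its parent for the 35 tested genes; red is called higher in the fusion, blue called lower and grey not called. Both panels hold mostly blue points (25 and 27 genes), LMOD1 and CALD1 are red in both, and CNN1 and FLNC are grey in the YAP-TFE3 panel.

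Set against each other, the fusions differed at 20 of the 35 (12 higher and 8 lower in TAZ-CAMTA1), where 42.7% of all genes were called (19.9% higher, 22.8% lower). Without YAP-TFE3 replicate 3 there were 14 higher and 8 lower. LMOD1 was 11.0-fold lower in TAZ-CAMTA1 than in YAP-TFE3 (log2 difference -3.46, SE 0.21, edgeR adjusted p = 5.55e-12) and CNN1 4.78-fold lower (-2.26, SE 0.26, edgeR adjusted p = 1.65e-07). TAGLN was higher in TAZ-CAMTA1 by 0.91 (SE 0.21, edgeR adjusted p = 0.00131) and MYH10 by 0.72 (SE 0.07, edgeR adjusted p = 6.37e-09). The parents were much closer, with 5 genes called in the TAZ4SA-labelled libraries against YAP5SA, where 7.17% of all genes were called (3.53% higher, 3.64% lower). MYH9, PDLIM7 and SMTN were higher in the former, by 0.37, 0.40 and 0.36, and CNN1 and LMOD1 lower, by -0.78 and -1.18. LMOD1 was called in every fit that left out 1 library. MYH9, PDLIM7 and SMTN lost their calls in 4 of 6 such fits, without TAZ4SA replicate 1, YAP5SA replicate 1 or 3 and 1 more of the TAZ4SA libraries (replicate 3 for MYH9, replicate 2 for PDLIM7 and SMTN), and CNN1 in 5, all but the one without YAP5SA replicate 3. PDLIM7 and SMTN were also not called when these groups were fitted alone.

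In EVsub, 19 of the 35 genes were higher than in EV and 1 was lower, with a median of 0.33, where 36.8% of all genes were called (19.8% higher, 17.1% lower). TAGLN rose 4.10-fold, to 86.6, 56.6 and 91.3 CPM (log2 difference 2.03, SE 0.20, edgeR adjusted p = 4.83e-07), and CNN1 2.28-fold, to 4.65, 4.19 and 5.88 CPM (1.19, SE 0.29, edgeR adjusted p = 0.00244). ACTG2 rose by 1.59, to 13, 12 and 22 counts (SE 0.50, edgeR adjusted p = 0.0147, lost without EV or EVsub replicate 3). CALD1 (0.88), TPM1 (0.73), TPM4 (0.65), ACTN1 (0.64), VCL (0.57) and CNN3 (0.57) followed. SRF was not called, with a difference of 0.05 (95% interval -0.11 to 0.21), nor was FLNC, at -0.04 (95% interval -0.27 to 0.20). TNNT1 was the gene called lower, by -0.34, a call lost without EV replicate 2 or 3 or EVsub replicate 1. The rise of MRTFB was 0.25 (edgeR adjusted p = 0.0461), lost without EV replicate 2 or 3 or EVsub replicate 1 or 3, and that of TPM2 was 0.29 (edgeR adjusted p = 0.0404), lost without any 1 of the 6 libraries. Both were also lost with total-count scaling and with a filter at a mean of 20 counts. Marker sums moved as well, from 44.6 to 53.2 CPM in EV to 64.3 to 73.7 in EVsub for the 7 smooth muscle markers and from 68.7 to 93.2 to 33.6 to 51.2 CPM for the 4 endothelial markers. Single markers did not move together. SYNM rose from a mean of 27.4 to 54 CPM, while ITGA8 fell from 17.3 to 11.2 and HSPB6 from 4.66 to 3.79. Of the endothelial markers, CDH5 fell from 42.9 to 17.7 CPM and VWF rose from 1.71 to 2.62. The part of these markers in the EVsub result was not tested.

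CAMTA1 was compared with EVsub, where 1.83% of all genes were called (1.26% higher, 0.57% lower). Both nonmuscle myosin heavy chains were higher and nothing else of the 35 was called. MYH9 read 1180, 1020 and 940 CPM against 789, 663 and 837 (log2 difference 0.46, SE 0.10, edgeR adjusted p = 0.012, lost without CAMTA1 replicate 1 or EVsub replicate 2). MYH10 read 459, 469 and 466 CPM against 354, 336 and 330 (log2 difference 0.45, SE 0.07, edgeR adjusted p = 0.000193). In CAMTA1 TAGLN read 103, 64.6 and 55.7 CPM, a difference of -0.07 (95% interval -0.44 to 0.31). In TFE3 cells TAGLN differed from EV by -0.29 (95% interval -0.69 to 0.11), MYH9 by 0.00 (95% interval -0.19 to 0.20) and LMOD1 by 0.08 (95% interval -0.44 to 0.60).

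Other genes of the same pathways were taken from 3 lists, and their counts stand beside the shares of all tested genes called higher and lower, which were 25.1% and 24.2% in the TAZ4SA-labelled libraries, 22.7% and 21.6% in YAP5SA, 25.6% and 22.6% in YAP-TFE3, 3.55% and 1.44% in TAZ-CAMTA1 and 19.8% and 17.1% in EVsub. Of 28 further stress fibre and adhesion genes, 15 were higher and 7 lower in the TAZ4SA-labelled libraries, 14 and 4 in YAP5SA, 11 and 4 in YAP-TFE3, 5 and 0 in TAZ-CAMTA1 and 7 and 4 in EVsub. The 7 of 28 lower in the TAZ4SA-labelled libraries are at the share of all genes. SYNPO (synaptopodin, an alpha-actinin partner) rose by 1.18 in TAZ-CAMTA1 (37.5 to 85.2 CPM, SE 0.10, edgeR adjusted p = 1.73e-08), 1.09 in the TAZ4SA-labelled libraries, 1.31 in YAP5SA and 1.42 in YAP-TFE3. NEXN (nexilin) rose by 1.14 and 1.31 in TAZ-CAMTA1 and YAP-TFE3, and the adhesion protein PARVA by 0.75, 0.76, 0.98 and 1.14 in TAZ-CAMTA1, the TAZ4SA-labelled libraries, YAP5SA and YAP-TFE3. Some members went down in the mutants. SVIL (supervillin) fell by 1.37 and 1.09, and SYNPO2 by 1.28 and 2.00, in the TAZ4SA-labelled libraries and YAP5SA. In YAP-TFE3, TGFB1I1 (Hic-5) fell by 0.71 and PALLD (palladin) by 0.44.

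Of 23 striated sarcomere genes, 15 were tested, and 5 were higher and 3 lower in the TAZ4SA-labelled libraries, 7 and 3 in YAP5SA, 5 and 2 in YAP-TFE3, 1 and 0 in TAZ-CAMTA1 and 1 and 5 in EVsub. Counts this small, several near the share of all genes, are given as values with nothing read from them about the list. Among the 15, TNNT2, MYL2 and MYL7 had at most 5, 5 and 9 counts in any library outside the mutants. They averaged enough counts to be tested only through the TAZ4SA-labelled libraries and YAP5SA, so any calls of them there are a description with no test. TMOD1 (tropomodulin 1, which caps filament ends) fell by 2.36, 2.91 and 1.56 in the TAZ4SA-labelled libraries, YAP5SA and YAP-TFE3 from 40.9 CPM in EV (SE 0.20, 0.21 and 0.19, edgeR adjusted p = 7.71e-10, 4.18e-11 and 2.40e-07), and TTN (titin) by 1.07, 1.08 and 0.52. The gene called in TAZ-CAMTA1, named after its values were seen, was MYL4, the atrial light chain (0.521 to 3.27 CPM, log2 difference 2.65, SE 0.28, edgeR adjusted p = 5.88e-07). MYL4 was not particular to that fusion, as it averaged 3.49 CPM in YAP5SA and 2.09 CPM in YAP-TFE3. In the TAZ4SA-labelled libraries it averaged 0.607 CPM. Of 10 TCF factors and immediate early genes, the other branch of SRF signalling, 1 was higher and 2 lower in the TAZ4SA-labelled libraries, 0 and 3 in YAP5SA, 2 and 2 in YAP-TFE3, 0 and 0 in TAZ-CAMTA1 and 1 and 2 in EVsub, and nothing is read from these counts either. EGR1 and FOS, likewise named after their values were seen, were the 2 called higher in YAP-TFE3, by 2.23 and 1.57 (SE 0.53 and 0.37, edgeR adjusted p = 0.00119 and 0.00118). No gene of the 3 lists was called in TFE3, and in CAMTA1 only FHL2, a LIM-domain cofactor, was (0.53, SE 0.11, edgeR adjusted p = 0.00772).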

How the data were processed

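Counts were taken from the gene-level count tables deposited by the authors, 1 per library, with no normalization. The authors used bcbio-nextgen on hg38 with Ensembl annotation and a stranded poly(A) kit. Their methods describe alignment and, separately, Salmon estimates converted to gene-level counts with tximport. Which of these made the deposited whole-number tables, and the strand setting and treatment of reads with several matches, are not given in the sources used here. Of the 39 genes, 28 overlap another annotated gene, 11 of them on the same strand, so their counts are uncertain to that degree. The 39 genes, the pathway lists and the marker lists were chosen with earlier results of these data known.

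The 19997 of 60279 genes averaging 5 counts or more were fitted with edgeR 4.0.16 in R 4.3.3 (quasi-likelihood F test, TMM scaling, 1 term per group, 24 libraries in 1 fit), and p-values were adjusted by Benjamini-Hochberg over all 19997 genes in each of 11 comparisons. A gene was called at an adjusted p under 0.05. CPM used the TMM-scaled library size, the SE was the log2 difference divided by the square root of F, and 95% intervals follow from it. Ratios of low counts carry exact intervals that cover counting error only. The limit that a count of 0 allows was set at 3 counts per library, the same at all library totals (19700277 to 35287476 counts). Values of single libraries, in EV and some of the other groups but not in all 8, are given for 2 kinds of gene. These are genes called with an absolute log2 difference of at least 1 against a control, and SRF and its coactivators. Some other genes outside that rule have them too. From each pathway list up to 3 higher and 3 lower genes per comparison could be named, by the largest called differences averaging 100 counts or more with no overlap, and genes named outside that rule are marked or stand beside values of a gene that met it. Symbols and coordinates came from GENCODE release 44 (56104 of 60279 identifiers matched), and promoter windows from RefSeq. Alternatives were DESeq2 1.42.0, 2 other scalings, 2 other filters, fits of the compared groups alone, the replicate number as a block, a test for log2 changes beyond 1 in either direction, and leaving out each library. Some results for other genes of these pathways are not reported here.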

Additional observations from a re-analysis of the deposited data

How the results depend on the processing

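Of the 195 calls of single genes over the 11 comparisons, 0 reversed under any alternative. DESeq2 lost 0 and added 1, DESeq2 size factors changed 0, a filter of at least 1 count in any library lost 4 and added 10, a filter of a mean of 20 counts lost 3, and fits of the compared groups alone lost 9 and added 5. Total-count scaling lost 9 and added 10. It put the median of all genes at -0.232 in TAZ4SA and -0.221 in YAP5SA against EV (-0.035 and -0.036 with TMM), at 0.227 in TAZ-CAMTA1 against TAZ4SA (0.029) and at 0.148 in YAP-TFE3 against YAP5SA (0.049), and it gave medians over the 35 genes of 0.61 (TAZ4SA), -0.11 (YAP-TFE3) and 0.27 (EVsub) against EV, -0.68 (TAZ-CAMTA1 against TAZ4SA) and 0.28 (TAZ-CAMTA1 against YAP-TFE3). Tested against an absolute log2 change of 1, the calls numbered 0 in TAZ-CAMTA1, 11 in TAZ4SA, 3 in YAP-TFE3, 12 in YAP5SA and 1 in EVsub against EV, 0 in CAMTA1 against EVsub, 7 in TAZ-CAMTA1 against TAZ4SA, 10 in YAP-TFE3 against YAP5SA, 2 between the fusions and 0 between the mutants. Fitted alone, TAZ4SA and YAP5SA differed at 3 genes instead of 5. Counting without TNNI1, which was chosen after seeing the data, changed the counts by at most 1. Leaving out 1 library gave 4 to 7 calls for TAZ-CAMTA1 against EV, 1 to 2 for CAMTA1 against EVsub and 1 to 5 between the mutants. It gave medians of 0.15 to 0.21 for TAZ-CAMTA1, 0.80 to 0.88 for TAZ4SA and -0.09 to 0.07 for YAP-TFE3 against EV, 0.13 to 0.17 between the fusions and -0.07 to 0.04 between the mutants. The cause of these shifts was not tested.

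With the replicate number as a block, 1 of the 195 calls was lost and 2 were added, so that 8, 30, 20, 28, 0, 2, 20, 30, 32, 20 and 6 genes were called in the 11 comparisons, in the order TAZ-CAMTA1, TAZ4SA, YAP-TFE3, then YAP5SA, then TFE3 against EV, CAMTA1 against EVsub, EVsub against EV, each fusion against its parent, the fusions and the mutants. Same-numbered libraries correlated by -0.0257 to 0.189 on average, and in no comparison were all 3 pairs over 0.1, so a number is not shown to pair libraries throughout. The largest single value was 0.366, for replicate 3 of TAZ4SA and YAP5SA, so these libraries departed from their groups partly alike.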

Other observations

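Markers of other cell types also differed between groups. The summed level of 6 adipocyte markers was 149 to 223 CPM in EV, 304 to 370 in YAP-TFE3, 64.2 to 74.5 in the TAZ4SA-labelled libraries and 118 to 132 in YAP5SA. That of 4 endothelial markers was 68.7 to 93.2 CPM in EV, 106 to 136 in TAZ-CAMTA1, 22.5 to 32.1 in YAP5SA, 36.2 to 55.9 in the TAZ4SA-labelled libraries, 33.6 to 51.2 in EVsub and 28.5 to 38.3 in CAMTA1. Single markers did not all follow these sums. The adipocyte sum is mainly LPL and PPARG, while CEBPA averaged 0.665 CPM in EV, 1.72 in the TAZ4SA-labelled libraries and 3.5 in YAP5SA. The endothelial marker VWF averaged 1.71, 5.66 and 5.6 CPM in the same groups. Epithelial and leukocyte markers (4 each) summed to at most 4.42 CPM in any library. Their part in the results was not tested. Among striated sarcomere genes, named after their values were seen, TNNT2 (cardiac troponin T) stood at 5.11 CPM in the TAZ4SA-labelled libraries and 6.97 CPM in YAP5SA, and had 0 to 2 counts per library in EV.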
